A study of Mus musculus with 19 samples.

Results

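The RNA of 9 chemokine genes, Ccl2, Ccl3, Ccl4, Ccl6, Ccl9, Cx3cl1, Cxcl12, Cxcl14 and Cxcl16, was read in the mouse hippocampus. They were taken by gene ID, and 9 of 9 were among the 20655 genes of the count table. Of these, 8 were among the 18204 genes that passed the low-count filter, and Ccl2 did not pass it. Chemokines are small secreted proteins that steer moving cells along gradients, and their families (CC, CXC and CX3C) are named for the spacing of cysteines near the amino end. They act through receptors coupled to G proteins, and atypical receptors such as Ackr3 take them up without that signal. In brain, some are made steadily by neurons, vessels or glia and serve contact between neurons and microglia or the placing of cells, while others are made by microglia and macrophages around injury and amyloid plaques.

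Knock-in animals, 4 females and 5 males, were hemizygous for the 5xFAD transgenes and homozygous for a clusterin knock-in that the labels call CLUh2kbKI. The 5xFAD animals, 5 females and 5 males, were hemizygous for the same transgenes and had no knock-in. All 19 mice were 4 months old, and the left hippocampus was taken after perfusion with saline. The 5xFAD transgenes carry human amyloid precursor protein and presenilin with familial Alzheimer's mutations under the neuronal Thy1 promoter, and 5xFAD mice are known to develop amyloid plaques. Clusterin, which astrocytes secrete, binds misfolded proteins and lipids. The labels do not say which sequence the knock-in changes, and no animal without the transgenes entered the comparisons. The question put to the chemokines was whether their RNA differs with the knock-in in a hippocampus that carries the amyloid transgenes.

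Libraries held 18232975 to 25200966 counts in knock-in animals and 17278276 to 20006866 in 5xFAD animals. The library and animal numbers of the genotypes do not interleave, so genotype and any batch tied to those numbers cannot be told apart. Clu, the gene that the knock-in targets, averaged 1069 ± 214 CPM (counts per 1000000 scaled counts of the tested genes) over 9 knock-in animals and 979 ± 120 CPM over the 10 of 5xFAD genotype (SD), with an edgeR adjusted p of 0.665. Since the labels do not say what the knock-in changes, the level of Clu does not check them. Hippocampal neuron genes were present in every library, with Prox1 of dentate granule cells at 56.2 to 135 CPM and Neurod6 of pyramidal neurons at 109 to 231 CPM. A level of 8 long noncoding RNAs set knock-in females apart, with 6.53 ± 0.43 mean log2 CPM (SD) over 4 knock-in females against 8.21 ± 0.17 (SD) over the 5 of 5xFAD genotype, and 5xFAD male 10 stood at 6.41. The summed RNA of 10 choroid plexus markers ran from 37.4 to 11662 CPM in knock-in animals and from 72.6 to 5359 CPM in 5xFAD animals. The RNA of 5 erythrocyte genes summed to 237 ± 69.0 CPM (SD) over 9 knock-in animals and 156 ± 37.1 CPM (SD) over the 10 of 5xFAD genotype. With edgeR 3 of the 5 (Hba-a1, Hbb-bs and Hbb-bt) rose in knock-in females, where 5.56% of all tested genes were called. In females DESeq2 called 5 of the 5 (1810 of all tested genes) and limma-voom 4 (852 of all tested genes). Over both sexes edgeR and limma-voom called 0 of the 5, and DESeq2 called 2, where it called 0.588% of all tested genes.

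No chemokine passed the threshold between genotypes with edgeR, whether over both sexes, in females or in males, and none passed for sex or for the interaction. Over both sexes 0 of 8 members were called, where 0.022% of all tested genes were. In females it was 0 of 8, where 5.56% of all tested genes were called. Those 1013 genes became 0 without knock-in female 2 or without knock-in female 4, 364 without 5xFAD female 1 and 439 without 5xFAD female 4, so each edgeR call in females named in the text was lost without either of those 2 knock-in females. In males it was 0 of 8, where the share of all tested genes was 0%. For the interaction it was 0 of 8 against 0.308% of all tested genes (56 genes, and 0 to 489 without each library in turn), and for sex 0 of 8 against 0.0604%. DESeq2, run as an alternative, called 1 member over both sexes, Ccl6, where it called 0.588% of all tested genes, and limma-voom called none. The values below are therefore levels and intervals rather than changes, apart from that one call.

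Over both sexes 4 of 8 members had an unadjusted edgeR p under 0.05 with higher values in knock-in animals (Ccl4, Ccl6, Cxcl12 and Cxcl16), where 6.15% of all tested genes did. All 8 had a log2 change above 0, against 49.6% of all tested genes (8 of 8 against 51.1% in females and 6 of 8 against 51.9% in males), and their median was 0.33 where the median of all tested genes was -0.0013. In females 0 of 8 had such a p (8.84% of all tested genes did), and their median log2 change was 0.27. In males 4 of 8 had one (3.39% of all tested genes), and their median was 0.38. Over both sexes no member separated the genotypes without overlap, which held for 0.00549% of all tested genes in the direction of higher values, and none did so in females, where 3.86% did. These counts describe a list that was chosen with results of these data known. A smaller number of cells of a type and less RNA per cell cannot be told apart in RNA of whole tissue.

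**Figure D1:**
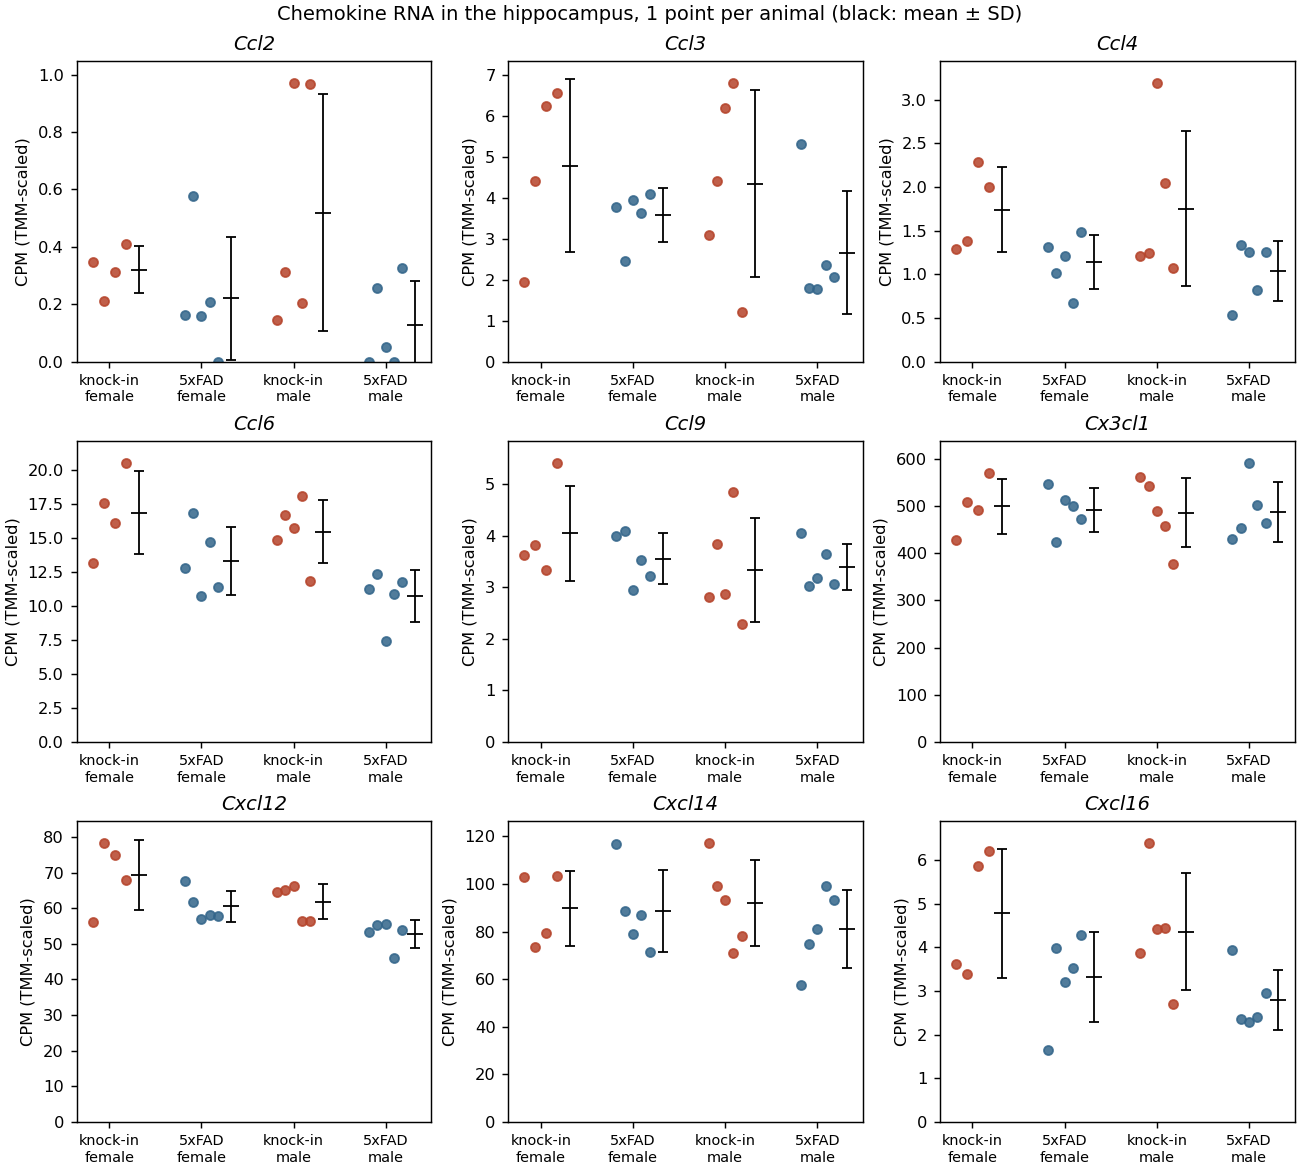
RNA of the 9 chemokines in CPM (vertical axes, each from 0) for knock-in females, 5xFAD females, knock-in males and 5xFAD males; each point is 1 animal, and black marks give the mean ± SD. Ccl6 stood at 16.1 ± 2.60 CPM in knock-in animals and 12.01 ± 2.51 CPM in 5xFAD animals, whereas Cx3cl1 stood at 492 ± 63.3 CPM in knock-in animals and 490 ± 52.4 CPM in 5xFAD animals, and in no panel do the 2 genotypes separate over both sexes.

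Per length of exon, the chemokines covered a wide range of levels. Cx3cl1, the membrane-bound chemokine of neurons, was the most abundant at 125 ± 14.3 CPM per kb over all libraries (SD, n = 19). Cxcl14, a chemokine made by some interneurons, followed at 48.0 ± 8.77 CPM per kb. Cx3cl1 lay above Cxcl14 in 19 of 19 libraries, with a ratio of means of 2.60, and Cxcl14 lay above the next gene in 19 of 19 with a ratio of 6.19. Ccl6 had 7.76 ± 1.80 CPM per kb and Cxcl12 had 7.42 ± 0.97 CPM per kb. On this scale these neighbours did not differ beyond their spread, since Ccl6 was the higher one in 11 of 19 libraries. The merged exon length was 1795 bases for Ccl6 and 8176 for Cxcl12, so their order rests on that length. Ccl3 came next at 4.95 ± 2.32 CPM per kb and Ccl4 at 2.12 ± 0.93 CPM per kb. Cxcl16 at 1.25 ± 0.44 CPM per kb and Ccl9 at 1.17 ± 0.24 CPM per kb were again neighbours within their spread, with Cxcl16 higher in 10 of 19 libraries. Ccl2 was the lowest at 0.26 ± 0.25 CPM per kb. By CPM alone, Cx3cl1 ranked 233rd of the 18204 tested genes, Cxcl12 3828th, Ccl6 9414th and Ccl4 14737th.

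**Figure D2:**
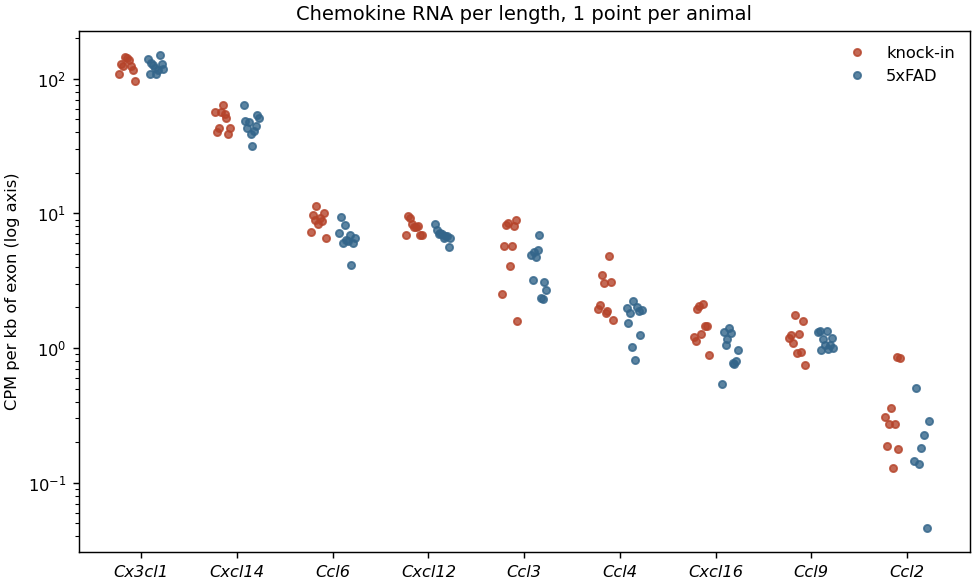
CPM per kb of exon on a log axis for the 9 chemokines in falling order of their mean, with 1 point per animal and knock-in animals left of 5xFAD animals. Cx3cl1 (96.3 to 150 CPM per kb) and Cxcl14 (31.6 to 64.1) stand clear of the others, the ranges of Ccl6 and Cxcl12 overlap, and 3 libraries with no Ccl2 count are not drawn.

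Ccl6 had the lowest p of the members between genotypes. It is a CC chemokine of rodents that microglia and macrophages make. Knock-in females had 13.2, 17.6, 16.1 and 20.5 CPM, against 12.8, 16.9, 10.8, 14.7 and 11.4 CPM in 5xFAD females. Knock-in males had 14.9, 16.7, 15.7, 18.1 and 11.9 CPM, against 11.3, 12.3, 7.41, 10.8 and 11.8 CPM in 5xFAD males. Inside the 5xFAD range of their sex lay 2 knock-in females and 1 knock-in male, and 9 of 9 knock-in animals stood above the 5xFAD median. Over both sexes the log2 change was 0.44 (95% interval 0.20 to 0.68, SE 0.12), with an unadjusted edgeR p of 0.0010 and an adjusted p of 0.188. DESeq2 gave 0.44 with an adjusted p of 0.0405. Without 5xFAD male 10, the 5xFAD library with the lowest noncoding level, edgeR gave 0.46 with an adjusted p of 0.0622, and without each library in turn the adjusted p ran from 0.0622 to 0.383. The log2 change was 0.34 for females, with an edgeR adjusted p of 0.236, and 0.53 for males, with one of 0.662, and the difference between the sexes, -0.18, did not pass (adjusted p = 0.733). The annotation places E230016K23Rik on the opposite strand across Ccl6, and whether the counting told the strands apart is not given in the sources used here, and without strand the reads of such a pair cannot be told apart.

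Ccl9, the neighbour of Ccl6 on chromosome 11 and also a CC chemokine of rodents, had little difference. Knock-in females had 3.62, 3.82, 3.33 and 5.40 CPM, against 4.00, 4.09, 2.94, 3.53 and 3.22 CPM in 5xFAD females. Knock-in males had 2.80, 3.84, 2.86, 4.85 and 2.29 CPM, against 4.05, 3.02, 3.18, 3.63 and 3.05 CPM in 5xFAD males. The groups overlapped almost wholly, with knock-in female 5 and knock-in male 9 the highest of their sexes and knock-in male 10 the lowest of all. Over both sexes its log2 change was 0.08 (95% interval -0.24 to 0.39, edgeR adjusted p = 0.889). It was 0.19 in females and -0.03 in males.

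Since Ccl6 and Ccl9 lie side by side and both read on the minus strand, the 250 bases before each start are shown, from RefSeq on GRCm38.p6 and 5′ to 3′ in the direction of the gene. The windows are chr11:83593088-83593337 for Ccl6 and chr11:83578637-83578886 for Ccl9, both on the minus strand. Capitals mark the longest run of bases that both windows share.
Ccl6: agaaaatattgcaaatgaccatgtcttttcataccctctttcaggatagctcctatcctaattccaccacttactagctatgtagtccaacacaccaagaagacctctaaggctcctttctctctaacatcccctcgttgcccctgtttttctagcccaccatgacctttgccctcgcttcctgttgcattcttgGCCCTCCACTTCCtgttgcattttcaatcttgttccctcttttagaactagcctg
Ccl9: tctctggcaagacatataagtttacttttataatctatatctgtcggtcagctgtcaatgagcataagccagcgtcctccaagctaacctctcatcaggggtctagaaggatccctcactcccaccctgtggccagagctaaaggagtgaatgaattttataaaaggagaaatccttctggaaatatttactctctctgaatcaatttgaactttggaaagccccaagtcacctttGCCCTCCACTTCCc
The shared run, GCCCTCCACTTCC, is 13 bases long. It covers bases 55 to 43 before the start of Ccl6 and bases 14 to 2 before the start of Ccl9. This run is held on either strand by 5 of 32851 promoter windows of the same length (0.0152%). The windows of Ccl6 and Ccl9, from which the run was taken, are among those 5, so that share does not measure how rare the run is. The run is the longest of the 15 pairs of members and was picked for that. Promoter windows were found for 6 of the 9 members (Ccl3, Ccl6, Ccl9, Cx3cl1, Cxcl12 and Cxcl14), and in the other pairs of these the longest shared run was 6 to 10 bases. Known motifs were searched on both strands of these 6 windows. The kappaB motif of NF-kB occurred in Ccl9 alone among them, on the minus strand of the window as GGAAAGCCCC, 35 to 26 bases before the start, and in 1.41% of all windows. For AP-1 the pattern TGANTCA was searched with any base allowed at N, which is looser than a motif with a set middle base. It also occurred in Ccl9 alone, as TGAATCA, 53 to 47 bases before the start, and in 6.75% of all windows. Neither the PU.1 motif GAGGAAGT nor the C/EBP motif TTGCNNAA was in any of the 6, where 2.44% and 9.56% of all windows hold them. The GC box GGGCGG was in Cxcl12 and Cx3cl1 and in 32.7% of all windows, and TATAAA was in Ccl9 and Cx3cl1 and in 12.4%. A match is a description of letters in the window.

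Over libraries, Ccl6 and Ccl9 varied together once the means of the 4 groups were removed (Pearson r = 0.618, permutation p = 0.00649; Spearman rho = 0.602, permutation p = 0.0121; n = 19). Adjusted over the 28 pairs of tested members, p was 0.182 for r and 0.175 for rho, so the pair did not pass that correction. Without the 2 libraries farthest from the median of Ccl9, r was 0.530.

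Ccl3 and Ccl4 are CC chemokines that activated microglia make and that attract other immune cells, and Ccr1 is a receptor of Ccl3. They lie next to each other on chromosome 11, on opposite strands. For Ccl3, knock-in females had 1.94, 4.40, 6.24 and 6.54 CPM, against 3.78, 2.45, 3.93, 3.63 and 4.09 CPM in 5xFAD females. Knock-in males had 3.09, 4.41, 6.19, 6.78 and 1.22 CPM, against 5.30, 1.79, 1.77, 2.35 and 2.07 CPM in 5xFAD males. The spread was wider among knock-in animals, which held both the 4 highest values and, in knock-in male 10, the lowest. The log2 change over both sexes was 0.57 (95% interval -0.013 to 1.16, edgeR adjusted p = 0.431), 0.42 in females and 0.71 in males.

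For Ccl4, knock-in females had 1.29, 1.38, 2.29 and 2.004 CPM, against 1.31, 1.01, 1.21, 0.674 and 1.48 CPM in 5xFAD females. Knock-in males had 1.21, 1.25, 3.19, 2.04 and 1.07 CPM, against 0.536, 1.33, 1.25, 0.819 and 1.25 CPM in 5xFAD males. In each sex 2 knock-in animals stood above every 5xFAD animal, and the others lay within the 5xFAD range. The log2 change over both sexes was 0.68 (95% interval 0.17 to 1.20, edgeR adjusted p = 0.326), the largest estimate among the 8 tested members, on the lowest CPM of them.

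Ccl2, the chemokine that draws monocytes through Ccr2, was near the limit of detection. Its counts were 7, 4, 6 and 10 in knock-in females, against 3, 12, 3, 4 and 0 in 5xFAD females. They were 3, 6, 21, 4 and 19 in knock-in males, against 0, 5, 1, 0 and 6 in 5xFAD males. Knock-in males 8 and 10 held the highest counts, and 3 libraries of 5xFAD animals had none, where a count of 0 allows up to 3 counts. Its mean was 0.431 ± 0.315 CPM (SD) over 9 knock-in animals and 0.174 ± 0.182 CPM (SD) over the 10 of 5xFAD genotype. When genotype was permuted within sex (exact, two-sided, on CPM), p was 0.0484 over 31752 regroupings, 0.421 in females and 0.0794 in males. Fitted without the low-count filter, edgeR gave a log2 change of 1.27 with an adjusted p of 0.456. The annotation places Gm17268 on the opposite strand across Ccl2.

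Cxcl16 is a chemokine with a membrane-bound form that also binds oxidised lipid, and its receptor is Cxcr6. Knock-in females had 3.62, 3.39, 5.88 and 6.22 CPM, against 1.64, 3.99, 3.20, 3.53 and 4.29 CPM in 5xFAD females. Knock-in males had 3.87, 6.38, 4.43, 4.44 and 2.70 CPM, against 3.93, 2.35, 2.29, 2.41 and 2.94 CPM in 5xFAD males. The highest 5xFAD animal stood below 5 of 9 knock-in animals, more than for any other member. The log2 change over both sexes was 0.59 (95% interval 0.19 to 0.99, edgeR adjusted p = 0.271), 0.52 in females and 0.65 in males. Zmynd15 overlaps Cxcl16 on the opposite strand in the annotation.

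Cxcl12, which guides neural progenitors and leukocytes through Cxcr4 and is taken up by Ackr3, had a small difference with a narrow interval. Knock-in females had 56.3, 78.2, 75.0 and 68.0 CPM, against 67.8, 61.7, 57.1, 58.2 and 57.8 CPM in 5xFAD females. Knock-in males had 64.5, 65.2, 66.3, 56.5 and 56.4 CPM, against 53.4, 55.2, 55.6, 46.1 and 54.0 CPM in 5xFAD males. In males the genotypes did not overlap, with 5 of 5 knock-in animals above the highest 5xFAD animal, which held for 0.527% of all tested genes. In females 3 of 4 knock-in animals stood above the highest 5xFAD animal and knock-in female 1 stood below the lowest. The log2 change was 0.21 over both sexes (95% interval 0.07 to 0.35, edgeR adjusted p = 0.260), 0.20 in females (adjusted p = 0.248) and 0.22 in males (adjusted p = 0.724).

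Cx3cl1, also called fractalkine, sits on neuronal membranes or is cut off them by Adam10 and Adam17, and microglia read it through Cx3cr1. In knock-in females it had 429, 509, 492 and 570 CPM, against 547, 424, 514, 501 and 473 CPM in 5xFAD females. Knock-in males had 563, 543, 490, 458 and 378 CPM, against 430, 453, 591, 502 and 464 CPM in 5xFAD males. The genotypes overlapped in both sexes. The log2 change over both sexes was 0.0089 with a 95% interval of -0.16 to 0.18 (edgeR adjusted p = 0.978), the narrowest interval but one among the members.

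Cxcl14 had 103, 73.4, 79.4 and 103 CPM in knock-in females, against 117, 88.8, 79.0, 86.9 and 71.4 CPM in 5xFAD females. Knock-in males had 117, 99.3, 93.4, 71.2 and 78.2 CPM, against 57.7, 74.8, 81.0, 99.1 and 93.2 CPM in 5xFAD males. The groups overlapped in both sexes. The log2 change was 0.10 over both sexes (95% interval -0.14 to 0.34, edgeR adjusted p = 0.777), 0.02 in females and 0.18 in males.

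**Figure D3:**
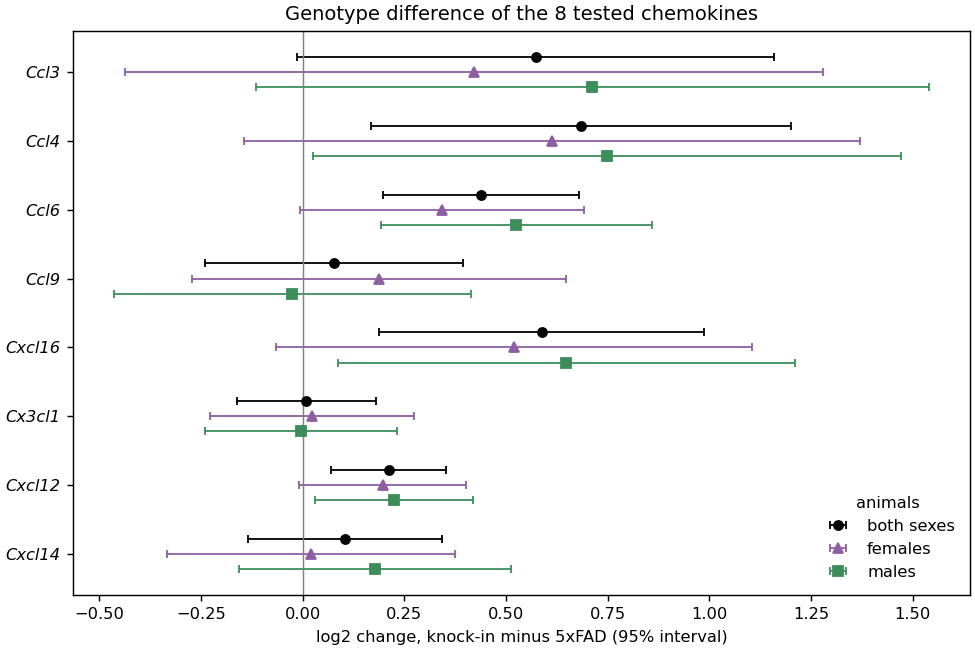
Log2 change, knock-in minus 5xFAD, of the 8 tested chemokines with 95% intervals from edgeR, over both sexes (black circles), in females (triangles) and in males (squares). Over both sexes the intervals of Ccl4, Ccl6, Cxcl12 and Cxcl16 lie above 0, that of Cx3cl1 runs from -0.16 to 0.18, and none of the 8 passed the adjusted threshold.

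Sex was compared over both genotypes as female minus male. All 8 members had a log2 change above 0, against 42.7% of all tested genes, with a median of 0.18. Of 18 microglia markers 18 also had a log2 change above 0 for sex, with a median of 0.18. Of 10 choroid plexus markers 10 did, with a median of 1.73, and 9 of them had an unadjusted edgeR p under 0.05, while 0 passed the adjusted threshold. The part of either in the members' sex difference was not tested. Cxcl12 had 64.4 ± 8.20 CPM in females (SD, n = 9) and 57.3 ± 6.29 CPM in males (SD, n = 10), and 9 of 9 females stood above the male median. Its edgeR log2 change was 0.18 (95% interval 0.04 to 0.32, adjusted p = 0.546). It was the 1 member of 8 with an unadjusted p under the threshold of 0.05, where 4.27% of all tested genes had one with higher values in females. Ccl6 had 14.9 ± 3.19 CPM in females and 13.1 ± 3.20 CPM in males, a log2 change of 0.22 (adjusted p = 0.812). For the genotype by sex interaction the 8 adjusted p values ran from 0.733 to 0.954.

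Markers of microglia had higher average values in knock-in animals, and all 8 tested chemokines had a log2 change above 0 over both sexes. Microglia were not alone in this. A log2 change above 0 was held by 12 of 12 astrocyte, 9 of 9 mural cell and 10 of 10 leptomeningeal fibroblast markers. It was also held by 10 of 10 choroid plexus markers, but by 4 of 11 neuron and 4 of 10 interneuron markers. Of 18 microglia markers 0 passed with edgeR over both sexes, 17 had an unadjusted p under 0.05 with higher values in knock-in animals, and 18 had a log2 change above 0 with a median of 0.40. Of all tested genes 6.15% had such a p. DESeq2 called 8 of the 18, where it called 0.588% of all tested genes, and limma-voom called 0. Their summed RNA ran from 1129 to 1886 CPM in knock-in animals and from 856 to 1419 CPM in 5xFAD animals. Their mean level was 5.79 ± 0.22 log2 CPM (SD) over 9 knock-in animals and 5.40 ± 0.19 log2 CPM (SD) over the 10 of 5xFAD genotype. Of 20 genes of microglia near plaques, 1 rose over both sexes, Cd68 of lysosomes (log2 change 0.73, edgeR adjusted p = 0.0382). There edgeR called 0.022% of all tested genes (4 genes, and 1 to 127 without any 1 library). The median of the 20 was 0.47, and over both sexes DESeq2 called 10 of them, Cd68 among them, and limma-voom 0. In females edgeR called 2 of the 20, where 5.56% of all tested genes were called, and in males 0. None of the 9 chemokines is on either list.

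Per 1000 CPM of summed microglia markers, Ccl6 averaged 10.6 ± 0.70 CPM (SD) over 9 knock-in animals and 10.4 ± 1.15 CPM (SD) over the 10 of 5xFAD genotype. Ccl3 had 2.84 ± 1.01 CPM in knock-in animals and 2.71 ± 1.01 CPM in 5xFAD animals on the same scale. Cxcl16 had 2.96 ± 0.61 CPM in knock-in animals and 2.68 ± 0.73 CPM in 5xFAD animals. For all 3 the means of the genotypes lay within 1 SD of each other on this scale. Ccl9 had 2.38 ± 0.43 CPM in knock-in animals and 3.04 ± 0.34 CPM in 5xFAD animals, so its order turned. The order of the means also turned for Cxcl12, with 43.5 ± 6.54 CPM in knock-in animals and 49.9 ± 6.64 CPM in 5xFAD animals on this scale. It turned for Cx3cl1 too, with 328 ± 47.3 CPM in knock-in animals and 436 ± 101 CPM in 5xFAD animals. Cxcl14 turned as well, with 61.5 ± 16.3 CPM in knock-in animals and 74.3 ± 13.6 CPM in 5xFAD animals. Ccl4 kept its order, with 1.13 ± 0.33 CPM in knock-in animals and 0.97 ± 0.34 CPM in 5xFAD animals. The summed markers averaged 1522 CPM in knock-in animals and 1150 CPM in 5xFAD animals. A gene that rose by less than these markers tends to turn on this scale, so a turn alone is no result about that chemokine. With the microglia level as an edgeR covariate, the log2 change over both sexes was -0.03 for Ccl6, -0.61 for Ccl3 and -0.30 for Ccl9. It was 0.26 for Ccl4, 0.15 for Cxcl16 and 0.11 for Cxcl12. In this fit 0 members and 0 of all tested genes passed the threshold. The level itself differed between genotypes (5.79 ± 0.22 and 5.40 ± 0.19 log2 CPM, SD), so the fit cannot part it from genotype. The part of microglia in the chemokine differences was not tested.

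Library by library, Ccl6 followed the microglia level most closely. After removing the means of the 4 groups, Pearson r was 0.866 (permutation p = 0.00014, adjusted over 16 relations 0.00224) and Spearman rho was 0.726 (permutation p = 0.00214, adjusted 0.0342; n = 19). Without the 2 libraries farthest from the median of the microglia level, r was 0.812. For Ccl3 r was 0.688 (permutation p = 0.00547, adjusted 0.0438) and rho was 0.589 (permutation p = 0.0194, adjusted 0.156), and r was 0.451 without those 2 libraries, so the relation rests partly on them. For Ccl9 r was 0.661 (permutation p = 0.00989, adjusted 0.0527) and rho 0.551 (permutation p = 0.0415, adjusted 0.200). The other 5 tested members had r from 0.0946 for Cxcl14 to 0.416 for Cxcl16, with adjusted permutation p values from 0.435 to 0.768. Against the noncoding level, the 8 members had r from -0.333 to 0.192, and adjusted permutation p values of at least 0.511 for r. Their rho ran from -0.500 for Cxcl12 (permutation p = 0.0501, adjusted 0.200) to 0.289 for Ccl9 (permutation p = 0.289, adjusted 0.530).

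**Figure D4:**
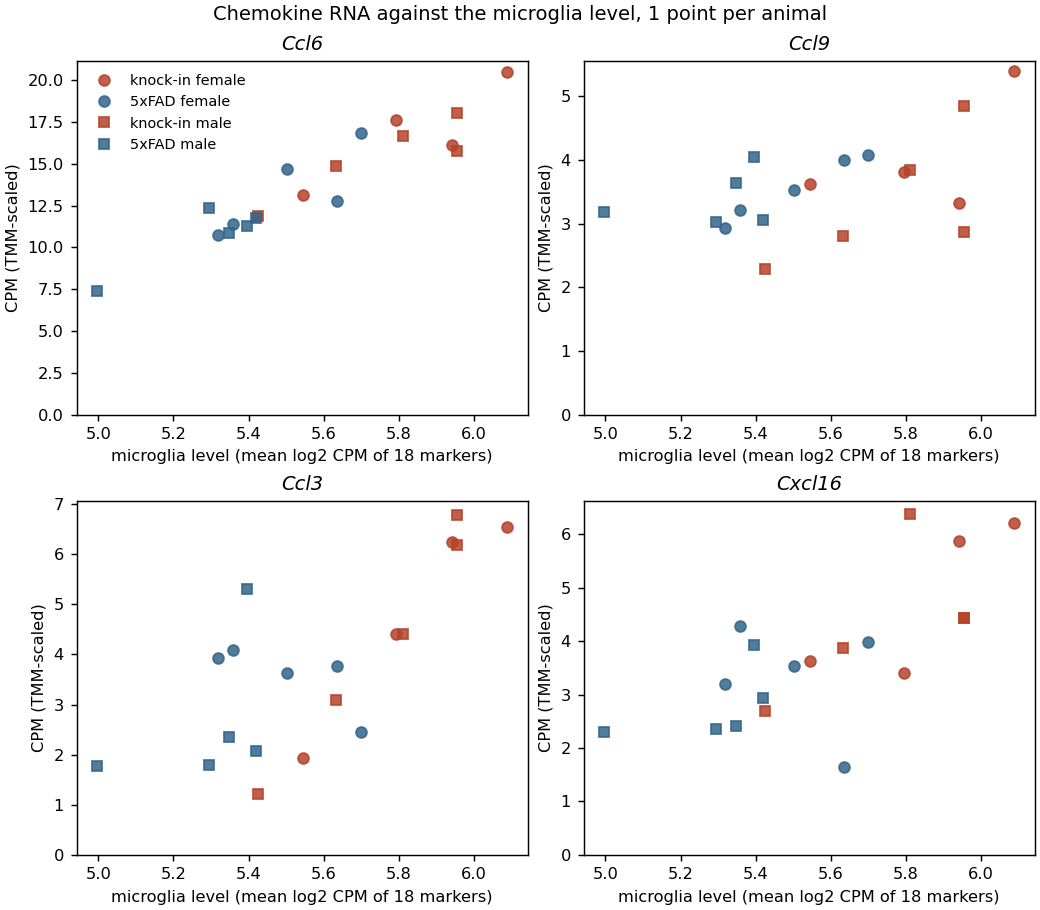
CPM of Ccl6, Ccl9, Ccl3 and Cxcl16 (vertical axes) against the microglia level, the mean log2 CPM of 18 markers (horizontal axes), with 1 point per animal (circles females, squares males). Ccl6 climbs with the level in both genotypes (r = 0.866 after removing group means), Ccl9 and Ccl3 do so less closely (0.661 and 0.688), and Cxcl16 the least (0.416).

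On log2 CPM after removing the means of the 4 groups, the genes whose pattern was most like that of Ccl6 were Ctss, a lysosomal protease (r = 0.867), Itgax, an integrin of microglia near plaques (0.863), and Fcer1g, an adaptor of Fc receptors (0.850). For Ccl9 they included Myo1f (0.754) and Cd48 (0.734), and for Ccl3 Serpine2 (0.910) and Eloc (0.890). Ctss is on the microglia list and Itgax is on the list for microglia near plaques. The other members were most like Lyrm1 for Ccl4 (0.781), Hsdl2 for Cxcl16 (0.873), Fam163b for Cxcl12 (0.835), Dusp14 for Cx3cl1 (0.901) and Pink1 for Cxcl14 (0.950). These are among the highest 3 of 12770 genes (12771 for Ccl4) over 19 libraries, with no test, and each set shares the libraries and their depth.

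Markers of other cells that could supply chemokines were read beside these. Of 12 astrocyte markers 12 had a log2 change above 0 over both sexes with a median of 0.21, and 3 rose in females (Aqp4, Gjb6 and Gfap), of which limma-voom called Gfap alone. DESeq2 called 1 of the 12 over both sexes, Gfap, and 6 of the 12 in females. Of all tested genes edgeR called 5.56% in females. The medians were 0.16 for 10 endothelial markers, 0.19 for 9 mural cell markers and 0.51 for 10 leptomeningeal fibroblast markers, with none past the threshold over both sexes by edgeR, DESeq2 or limma-voom, and with 2, 1 and 5 genes at an unadjusted edgeR p under 0.05. In females DESeq2 called 2 endothelial, 0 mural cell and 3 leptomeningeal fibroblast markers, and edgeR and limma-voom called 0. Of 7 perivascular macrophage markers 6 were tested, with a median of 0.41, and the summed RNA of all 7 was 8.38 ± 2.77 CPM (SD) over 9 knock-in animals and 6.29 ± 1.41 CPM (SD) over the 10 of 5xFAD genotype. Their median was 0.59 in females, where 3 of 6 had an unadjusted edgeR p under 0.05, and 0.01 in males. In females DESeq2 and limma-voom called 1 of them, F13a1 (edgeR log2 change 1.34, adjusted p = 0.0590). Over all tested genes DESeq2 called 1810 and limma-voom 852 in females. Whether any of these marker lists held more calls than those shares give was not tested. Blood leukocyte markers were near the limit of detection. Of 12 such markers 4 passed the low-count filter, with a median of 0.05, and the summed RNA of the 9 in the count table ran from 10.5 to 20.5 CPM in knock-in animals and from 8.76 to 23.1 CPM in 5xFAD animals, mostly Ptprc, which microglia also express. Cd3e of T cells was listed at 0 in 5 libraries and averaged 0.125 CPM. The median was -0.02 for 11 neuron markers, -0.07 for 10 interneuron markers, 0.19 for 8 oligodendrocyte markers and -0.25 for 18 immediate early genes. Of these only Reln, an interneuron gene, passed in females, where it fell by 0.48 on the log2 scale (edgeR adjusted p = 0.0382). The part of any of these cells in the chemokine values was not tested.

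Receptors of the 9 chemokines were read on the receiving side. Of 25 chemokine receptors 11 were tested, and 0 passed in any genotype comparison with edgeR. Over both sexes 2 had an unadjusted p under 0.05 with higher values in knock-in animals and 1 with lower values, and DESeq2 and limma-voom called 0 in any genotype comparison. Cx3cr1, the microglial receptor of Cx3cl1, had 55.7, 64.3, 78.5 and 92.7 CPM in knock-in females, against 51.1, 55.8, 47.8, 56.6 and 55.3 CPM in 5xFAD females. It had 45.1, 78.4, 90.1, 70.1 and 44.4 CPM in knock-in males, against 69.7, 47.9, 38.7, 48.0 and 46.9 CPM in 5xFAD males. Knock-in females stood higher apart from 1 animal inside the 5xFAD range, and males overlapped. The log2 change over both sexes was 0.42 (SE 0.13, edgeR adjusted p = 0.260), while that of its ligand Cx3cl1 was 0.0089.

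The receptors of Cxcl12 had log2 changes near 0 over both sexes. Cxcr4 averaged 3.37 ± 0.96 CPM (SD) over 9 knock-in animals and 3.19 ± 0.83 CPM (SD) over the 10 of 5xFAD genotype, a log2 change of 0.08 (edgeR adjusted p = 0.911). Ackr3 had 14.4 ± 3.44 CPM in knock-in animals and 14.98 ± 2.48 CPM in 5xFAD animals, a log2 change of -0.06 (adjusted p = 0.899). The atypical receptors Ackr1 and Ackr2, which bind many CC chemokines, had log2 changes of -0.12 (adjusted p = 0.829) and 0.0049 (adjusted p = 0.998). Ccr1, Ccr2 and Cxcr6 did not pass the low-count filter. Ccr2 averaged 0.360 CPM in knock-in animals and 0.196 CPM in 5xFAD animals, Cxcr6 averaged 0.208 CPM in knock-in animals and 0.111 CPM in 5xFAD animals, and Ccr1 averaged 0.160 CPM in knock-in animals and 0.181 CPM in 5xFAD animals.

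Other chemokine ligands, the steps after a chemokine and its induction were described by lists. Of 29 further ligands 10 were tested, and 0 passed over both sexes by edgeR, DESeq2 or limma-voom, while 2 had an unadjusted edgeR p under 0.05 with higher values in knock-in animals and 1 with lower values. Cxcl10, an interferon-induced ligand of Cxcr3, averaged 4.07 ± 2.40 CPM (SD) over 9 knock-in animals and 2.29 ± 1.51 CPM (SD) over the 10 of 5xFAD genotype, a log2 change of 0.92 (edgeR adjusted p = 0.357). Ccl25 had 4.99 ± 1.64 CPM in knock-in animals and 6.48 ± 1.27 CPM in 5xFAD animals, a log2 change of -0.40 (adjusted p = 0.370). In females its log2 change was -0.70 (edgeR adjusted p = 0.0754), which DESeq2 called and limma-voom did not. DESeq2 called 1810 of all tested genes in females. Ccl27a fell in knock-in females (log2 change -0.76, edgeR adjusted p = 0.0238), also by DESeq2 and limma-voom, and had a log2 change of 0.38 in males (adjusted p = 0.751). It has near-identical copies in the mouse genome, so its value is uncertain, and the difference between the sexes had an edgeR adjusted p of 0.0520, with a call by DESeq2 and none by limma-voom.

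Of 22 genes of chemokine shedding, trimming and signalling, 0 passed over both sexes with edgeR, 9 had an unadjusted p under 0.05 with higher values in knock-in animals, and the median log2 change was 0.19. DESeq2 called 1 of them, Gnai2, and limma-voom 0. Gnai2, a G protein subunit that chemokine receptors use, averaged 222 ± 20.3 CPM (SD) over 9 knock-in animals and 188 ± 6.90 CPM (SD) over the 10 of 5xFAD genotype, a log2 change of 0.25 (edgeR adjusted p = 0.156). The highest 5xFAD animal stood below 8 of 9 knock-in animals. Dock2, which activates Rac proteins in moving leukocytes, had 9.45 ± 2.13 CPM in knock-in animals and 7.44 ± 1.09 CPM in 5xFAD animals, a log2 change of 0.36 (adjusted p = 0.276). Sdc4, a heparan sulfate carrier that binds chemokines, rose in knock-in females (0.56, adjusted p = 0.0217) and had -0.01 in males (adjusted p = 0.993), with an adjusted p of 0.123 for the difference. The sheddases of Cx3cl1 and Cxcl16 had log2 changes of 0.10 for Adam10 (adjusted p = 0.603) and 0.21 for Adam17 (adjusted p = 0.337), both named after their values were seen.

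Of 18 NF-kB and cytokine genes 16 were tested, and 0 passed over both sexes by edgeR, DESeq2 or limma-voom, while 5 had an unadjusted edgeR p under 0.05 with higher values in knock-in animals and 1 with lower values. Icam1 and Vcam1, adhesion molecules that leukocytes bind, had log2 changes of 0.50 (adjusted p = 0.238) and 0.41 (adjusted p = 0.252). Vcam1 rose in knock-in females (0.63, edgeR adjusted p = 0.0314) and had 0.21 in males (adjusted p = 0.851), with an adjusted p of 0.353 for the difference. In females DESeq2 called Vcam1 as higher and Nfkbiz as lower, and limma-voom called Vcam1 alone. Over both sexes 12 of the 16 tested genes had a log2 change above 0. For Nfkbiz and for Tnfaip3, 1 of 9 knock-in animals stood above the 5xFAD median.

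In single libraries the values of Ccl9, and less so those of Cxcl16, depended on which deposited table was read. In the authors' normalized table each count is scaled by a factor that differs by gene as well as by library. For Ccl9 this factor, relative to the median gene of the library, ran from 0.736 to 2.65, and its SD on the log2 scale was 0.455, at percentile 93.4 of all tested genes. For Cxcl16 the SD was 0.285, and for the other 6 tested members it was 0.109 to 0.126, where the median of all tested genes was 0.147. Knock-in male 8 had the factor of 2.65 for Ccl9. With these values Ccl9 had a log2 change of 0.51 in males, against -0.03 from the counts, and -0.06 in females, against 0.19 from the counts. Cxcl16 had 0.54 over both sexes from the normalized values and 0.59 from the counts. Of the 8 members 0 passed the threshold with the normalized values in limma, and 0 did with the counts in edgeR.

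**Figure D5:**
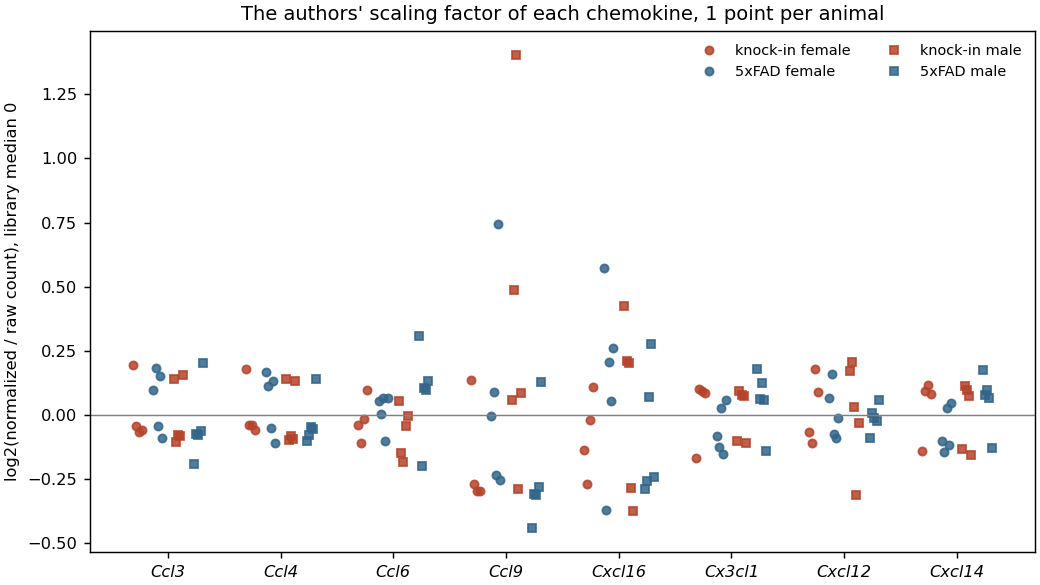
Log2 ratio of the authors' normalized value to the raw count for the 8 tested chemokines, set to a median of 0 over genes in each library, with 1 point per animal (circles females, squares males). Ccl9 spreads from -0.44 to 1.40 and Cxcl16 from -0.38 to 0.57, while the other 6 chemokines stay between -0.31 and 0.31.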

How the data were processed

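Bulk RNA of 19 hippocampi was measured, with 1 library per animal. The submitters' processing notes name mm39 as build and list Salmon, FastQC, Seurat and DESeq2 as tools, with no version and no step for any of them. The authors deposited estimated counts per gene as whole numbers, and all tests used these. The authors also deposited normalized values, here treated as a signal, whose factor over the count differs by gene and library. They served only as an alternative, as log2(value + 1) in limma.

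Symbols, exon lengths and gene order came from GENCODE M21 on GRCm38, which matched 20023 of 20655 gene IDs. Promoter windows came from RefSeq on GRCm38.p6. Because the authors' build was mm39, no other coordinates are given. Exon length is the merged length of all annotated exons of a gene.

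Counts were scaled to CPM (counts per 1000000 counts of the tested genes) with TMM factors and tested with edgeR 4.0.16 in R 4.3.3. The low-count filter of edgeR (filterByExpr, minimum 10 counts, 4 groups) left 18204 genes. The quasi-likelihood F-test used robust dispersions, and p values were adjusted by Benjamini and Hochberg over these genes with a threshold of 0.05. Genotype over both sexes had sex as a covariate, and sex over both genotypes was adjusted for genotype. Effects within females, within males and their difference came from 1 model with a mean per group. Intervals of log2 changes are 95% intervals from the same fits. The fits were tested on simulated data. Alternatives were DESeq2 1.42.0, limma-voom (limma 3.58.1), other scalings, other filters, only the compared groups, the number in the titles as a block, 2 covariates and leaving out each library. An exact permutation test of Ccl2, the values per microglia marker RNA, the look at Prox1 and Neurod6 and the run shared by the Ccl6 and Ccl9 windows were added after seeing the data.

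Correlations over libraries were taken on log2 CPM (prior count 2) after subtracting the mean of each of the 4 groups, with 100000 two-sided permutations within groups. The smallest chi-square per gene among the 36 pairs of libraries within a group was 12.1, where 1 is sampling noise, so every library was kept as its own replicate.

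All 9 members are named in the text, with the known receptors of the members that passed the filter. Of the other ligands, signalling and NF-kB lists, genes past the threshold are named (up to 3 a list) and otherwise the 2 with the lowest p over both sexes; of the marker lists only genes past the threshold are named. Some genes that this rule names are not reported here. Any other gene was named after its values were seen. Members and lists were chosen with earlier results of these data known. The p values measure the spread between these animals only.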

Additional observations from a re-analysis of the deposited data

Results flagged for a closer look

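Each chemokine was looked at for 1 animal that stands apart within its group of 4 or 5, and 3 of 36 groups held one. Chance gives about 1 in 20. Ccl3 was low in 5xFAD female 2, at 2.45 CPM, where the other 5xFAD females had 3.63 to 4.09 CPM. Ccl3 was high in 5xFAD male 6, at 5.30 CPM, where the other 5xFAD males had 1.77 to 2.35 CPM. Cxcl12 was low in 5xFAD male 9, at 46.1 CPM, where the other 5xFAD males had 53.4 to 55.6 CPM. Leaving out each animal in turn left 0 members called in every comparison with edgeR. Without any 1 animal the log2 change of Ccl3 in males ran from 0.50 to 1.12, and without 5xFAD male 6 it was at the upper end.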

How the results depend on the processing

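Of 1184 alternative values of single members, 1114 kept their direction and side of the threshold, 69 changed sign and 1 passed the threshold. DESeq2 called 1 member over both sexes, Ccl6 (log2 change 0.44, adjusted p = 0.0405), and no other setting called a member in any comparison. With the microglia level as a covariate, the log2 changes that changed sign were, over both sexes, -0.61 for Ccl3, -0.030 for Ccl6, -0.30 for Ccl9 and -0.019 for Cx3cl1. In females they were -0.63 for Ccl3, -0.049 for Ccl6, -0.16 for Ccl9, -0.0036 for Cx3cl1 and -0.027 for Cxcl14, and in males -0.59 for Ccl3 and -0.0047 for Ccl6. For the interaction they were 0.012 for Ccl4 and 0.0030 for Cxcl12, and for sex -0.0076 for Ccl3 and -0.069 for Ccl4. With the noncoding level as a covariate, Cx3cl1 had -0.026 over both sexes, -0.11 in females, 0.0032 in males and -0.11 for the interaction, and Cxcl14 had -0.14 in females. With library size only, Cx3cl1 had -0.023 over both sexes, -0.076 in females, 0.023 in males and -0.10 for the interaction, Cxcl14 had -0.076 in females, and Ccl9 had 0.0071 in males. With the authors' normalized values, Ccl9 had -0.060 in females, 0.51 in males and -0.57 for the interaction, Cxcl14 had 0.027 for the interaction, and Cx3cl1 had -0.013 for sex. Without a low-count filter, Cxcl12 had 0.013 for the interaction. The cause of these changes was not tested.

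The labels do not say that numbers in the titles pair the animals. The correlations of same-numbered animals of the 2 genotypes ran from -0.203 to 0.119 over 9 pairs, which cannot exclude a pairing. For number 10 the value of 0.119 lay above the best match with another number (0.0268), and for the other numbers it lay below. With the number as a replicate block, 0 members were called in the 4 genotype comparisons (for sex no block could be fitted, since the numbers are nested in sex), and Cxcl14 had -0.014 in females. Leaving out each library in turn, values that changed sign ran over both sexes from -0.0065 to 0.14 for Ccl9 and -0.023 to 0.059 for Cx3cl1. In females they ran from -0.044 to 0.12 for Cx3cl1 and -0.053 to 0.12 for Cxcl14, and in males from -0.20 to 0.075 for Ccl9 and -0.062 to 0.072 for Cx3cl1. For the interaction they ran from -0.27 to 0.20 for Ccl4, -0.039 to 0.12 for Cx3cl1, -0.10 to 0.090 for Cxcl12 and -0.31 to 0.048 for Cxcl16, and for sex from -0.021 to 0.22 for Ccl4 and -0.0029 to 0.11 for Cxcl14. Over all genes, the genotype effect over both sexes had 4 calls with edgeR, 1 to 127 without any 1 library (127 without 5xFAD male 10), 107 with DESeq2, 2 without the sex covariate or with the noncoding level, 1 with library size only or the authors' values, and 0 with the block or the microglia level. In females 1013 calls became 1810 with DESeq2, 1603 with females alone, and 0 with the block or either level; without any 1 library they ran from 0 (without knock-in female 2 or 4) to 1334. In males 0 became 19 with DESeq2 and 1 with library size only. For the interaction 56 became 766 with DESeq2, 402 with library size only, 106 with the microglia level and 0 with 6 other settings, and ran from 0 to 489 without any 1 library (489 without knock-in male 7, and 0 without most). For sex 11 became 73 with DESeq2 and 8 to 34 without any 1 library (34 without 5xFAD male 10). Low counts limit Ccl2 most, with at most 21 in a library.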
